A study of Mus musculus with 17 samples.

Results

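The genes described here encode chromatin modifiers, remodelers and histones. They were taken from the deposited gene table by symbol, as the protein-coding rows whose names begin with the prefixes Kdm, Kmt, Kat, Setd, Suv, Hdac, Sirt, Smarc, Chd, Brd, Phf, Ing, Prdm, Prmt, Cbx, Tet, Dnmt, Mbd, Hist, H1f, H2a, H2b or H3f. The rule found 29 of the 2615 listed genes, 2259 of which are protein-coding. It used no measured value, but the table itself was selected on these libraries, because each listed gene carries an adjusted P below 0.05 of the authors' own comparison. In the GENCODE vM21 annotation of the mouse, 270 protein-coding genes fit the same prefixes, and those that were not listed were not analysed here.

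RNA of oocytes labelled MII, the stage of arrest at the second meiotic metaphase, was sequenced in 3 control libraries and 3 Ehmt2GKO libraries. The study's text calls them superovulated oocytes and describes an arrest of Ehmt2GKO oocytes in the first division, so a difference in meiotic stage between the groups cannot be told apart from the genotype in any result below. All mice were C57BL/6J, 8 weeks old and homozygous for the floxed Ehmt2 allele, Ehmt2(flox/flox). The Ehmt2GKO mice also carried the Gdf9-Cre transgene, whose promoter drives the recombinase in oocytes from the primordial follicle stage, so that a stretch of Ehmt2 exons is lost in the germ cell and not in the surrounding follicle cells. Libraries were made from polyadenylated RNA after amplification for low input. Replicates are numbered 1, 2 and 6 in control and 3, 4 and 5 in Ehmt2GKO oocytes. The labels do not say whether each came from a separate mouse, so that P values measure the spread between these libraries, which may be technical.

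Chromatin is built of nucleosomes, in which DNA is wound around histones. Writers such as lysine methyltransferases and acetyltransferases add groups to histone tails, erasers such as demethylases and deacetylases take them off, and readers with PHD fingers, bromodomains or chromodomains bind them, while remodelers move nucleosomes with the energy of ATP. EHMT2, also called G9a, writes the dimethyl mark on lysine 9 of histone H3 (H3K9me2). A fully grown oocyte makes little new RNA, so the level of an mRNA in an ovulated oocyte reflects stored and degraded transcripts as well as earlier transcription. Fewer transcripts per oocyte and fewer oocytes of a kind in a sample cannot be told apart in such pooled RNA.

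The reads over all listed genes ranged from 4060653 to 4258350 per library, and total depth cannot be read from a selected list. Ehmt2 itself was not among the genes analysed here, so the deleted gene could not be used to check the labels, and each direction given below rests on the labels alone. Of 16 oocyte marker genes, 7 were listed, with summed normalized counts of 50689 to 61861 in control and 58531 to 60421 in Ehmt2GKO libraries. The sums hide opposite directions, since Zp3 was called lower (6962 ± 150 in control and 3358 ± 173 in Ehmt2GKO, log2 fold change -1.05), Zp1 (-0.86), Zp2 (-0.40) and Tle6 (-0.34) were lower without a call, and Nlrp5 (0.42), Padi6 (0.48) and Mos (0.51) were higher without a call. Of 24 markers of cumulus and granulosa cells, the follicle cells around the oocyte, 2 were listed, and their summed normalized counts were 336 to 384 in control and 246 to 335 in Ehmt2GKO libraries. These were Kitl, at 344 ± 29.5 in control and 222 ± 36.1 in Ehmt2GKO (SD, n = 3 each), and Ptgs2, with 6, 10 and 14 reads in control and 107, 74 and 59 in Ehmt2GKO libraries. The other 22 markers of these cells were not analysed here, and the part of follicle cells in the results below was not tested.

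Most of the chromatin genes were moderately higher in Ehmt2GKO oocytes. Of the 29, 21 were higher and 8 lower than in control, and 23 of them differed by less than 2-fold. A gene was called when its log2 fold change exceeded 1 in size and its adjusted P was below 0.01 in edgeR's quasi-likelihood test with Benjamini-Hochberg adjustment over the 2516 listed genes that passed the low-count filter. All 29 passed that filter. The call was reached by 6 of them (20.7%), against 35.7% of all genes tested. When the fold itself was tested against 2 with edgeR's glmTreat, 0 of the 29 were called, against 10.3% of all genes tested, and 3 had an unadjusted P below 0.05. Kmt2e, Kdm3a and Cbx7 rose, where 18.7% of all genes tested were called higher. Kdm5b, Phf5a and H2afv fell, where 16.9% of all genes tested were called lower.

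In the main edgeR fit, all 29 had an adjusted P below 0.01 at any fold, from 2.57e-06 to 0.00722. So did 98.8% of all genes tested. For all 29 the normalized counts of the groups did not overlap, as for 98.3% of all genes tested. These counts restate the selection of the table. A log2 fold change above 0 was found for 72.4% of the chromatin genes and for 49.4% of all genes tested. Their median log2 fold change was 0.51, and that of all genes tested was -0.32. The sign of the latter median depended on the fit. It was 0.31 with no low-count filter and 0.24 to 0.27 when a control replicate was left out. The median size of the change was 0.59 for the chromatin genes and 0.76 for all genes tested. The share of the reads over listed genes that fell on the 29 was 0.860%, 0.809% and 0.797% in control libraries 1, 2 and 6 and 0.970%, 0.915% and 0.978% in Ehmt2GKO libraries 3, 4 and 5. Each Ehmt2GKO share lay above each control share, and the 2-sided exact permutation P was 0.10, the smallest that 3 against 3 libraries can give. As the listed genes were selected on these same libraries, this separation and its P are not independent of that selection.

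**Figure D1:**
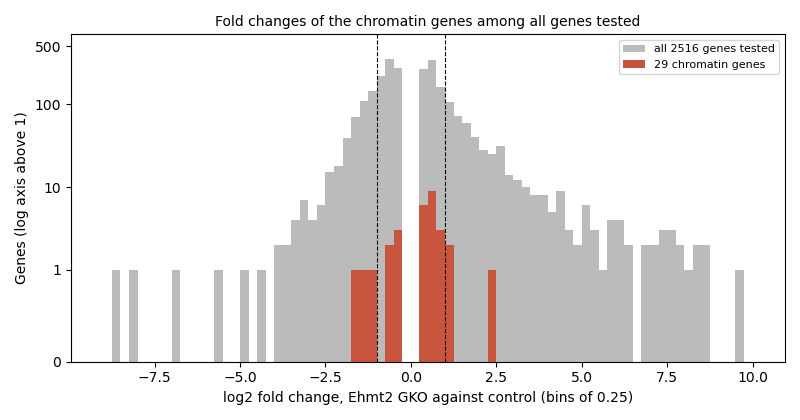
Distribution of log2 fold changes, Ehmt2GKO against control, in bins of 0.25 for all 2516 genes tested (grey) and for the 29 chromatin genes (red), with the number of genes on an axis that is logarithmic above 1 and dashed lines at the threshold of 1. Of the 29 genes, 18 lie between 0 and 1, the gap around 0 is present for all listed genes, and Cbx7 at 2.42 stands apart on the right.

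Values below are normalized counts, reads divided by library sizes scaled with TMM factors, and a log2 fold change is given with its standard error. Positions refer to GRCm38 as the authors deposited them.

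Among the genes grouped by symbol alone as lysine methyltransferases, Kmt2e rose about 2-fold, Kmt5a was higher by less and Setdb1 was lower. Kmt2e (ENSMUSG00000029004, chr5:23434441-23504235, plus strand) encodes MLL5, a SET domain protein that binds trimethylated H3K4 through its PHD finger. It had 439, 411 and 341 normalized counts in control libraries 1, 2 and 6 and 762, 818 and 879 in Ehmt2GKO libraries 3, 4 and 5. The groups were far apart, with the lowest Ehmt2GKO library 1.74 times the highest control library. The means were 397 ± 50.5 and 819 ± 58.6 (SD, n = 3 each), and the log2 fold change was 1.05 ± 0.133 (edgeR adjusted P = 4.88e-06). This lies just past the threshold, and the call was lost without control replicate 6 (log2 fold change 0.94) and without Ehmt2GKO replicate 5 (0.996). Kmt2e shares its span with the opposite-strand genes Srpk2 and Gm25219, and no strand setting was stated for the counting.

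Kmt5a (chr5:124439930-124462308), the enzyme that monomethylates lysine 20 of histone H4, had 569, 721 and 798 normalized counts in control and 912, 1076 and 1312 in Ehmt2GKO libraries. The spread within each group was wide, and the lowest Ehmt2GKO library was 1.14 times the highest control library. Its log2 fold change was 0.66 ± 0.148 (edgeR adjusted P = 0.000729). Setdb1 (chr3:95323525-95357202), which writes H3K9 trimethylation, had 1511, 1578 and 1631 normalized counts in control and 961, 983 and 999 in Ehmt2GKO libraries. Both groups were tight and well separated. The means of 1574 ± 60.1 and 981 ± 19.2 correspond to a 1.60-fold lower level in Ehmt2GKO oocytes, with a log2 fold change of -0.68 ± 0.102 (edgeR adjusted P = 2.50e-05). Setdb1 overlaps Cers2 and a further 2 genes on the opposite strand.

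Both PR domain genes were slightly higher. Prdm2 (chr4:143107391-143212995), known as RIZ and linked to H3K9 methylation, had 277, 260 and 247 normalized counts in control and 317, 349 and 419 in Ehmt2GKO libraries. Its log2 fold change was 0.47 ± 0.153, and its adjusted P of 0.00722 in edgeR was the largest among the 29 genes. Prdm6, a PR domain repressor of transcription, had 1708, 1602 and 1217 normalized counts in control and 1762, 2030 and 2208 in Ehmt2GKO libraries. Its groups all but touched, with the lowest Ehmt2GKO library 1.03 times the highest control library, and the log2 fold change was 0.41 ± 0.129 (edgeR adjusted P = 0.00626). Prmt2 (chr10:76207222-76237865), the single listed arginine methyltransferase, had 1149, 1115 and 1073 normalized counts in control and 900, 813 and 837 in Ehmt2GKO libraries. Every Ehmt2GKO library lay below every control library, and the log2 fold change was -0.39 ± 0.108 (edgeR adjusted P = 0.00302).

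The 2 listed lysine demethylases were both called, in opposite directions, where 35.7% of all genes tested were called. Kdm3a (ENSMUSG00000053470, chr6:71588972-71632990, minus strand) removes mono- and dimethyl groups from H3K9, the mark that EHMT2 writes. It had 70.9, 63.2 and 75.4 normalized counts in control libraries 1, 2 and 6 and 166, 130 and 131 in Ehmt2GKO libraries 3, 4 and 5. Ehmt2GKO replicate 3 was the highest, and the other two of its group were nearly equal and still 1.72 times the highest control library. The mean rose 2.03-fold, from 69.8 ± 6.18 to 142 ± 20.4 (SD, n = 3 each), and the log2 fold change was 1.02 ± 0.223 (edgeR adjusted P = 0.000607). The call lies near the threshold and was lost without control replicate 2 (0.95) and without Ehmt2GKO replicate 3 (0.89).

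Kdm5b (ENSMUSG00000042207, chr1:134560171-134635285, plus strand) removes methyl groups from H3K4, a mark of active promoters. It had 334, 254 and 285 normalized counts in control libraries and 110.0, 97.1 and 96.7 in Ehmt2GKO libraries. The Ehmt2GKO values were close together and low, and the lowest control library was 2.31 times the highest of them. The mean fell 2.87-fold, from 291 ± 40.4 to 101 ± 7.58, and the log2 fold change of -1.52 ± 0.182 (edgeR adjusted P = 2.57e-06) was the largest fall among the 29 genes. It was called without any one of the 6 libraries, with log2 fold changes of -1.62 to -1.42, but not when the fold was tested against 2 (adjusted P = 0.0105). Neither demethylase overlapped another gene or had a near-identical copy.

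The promoters of the called genes are shown where a RefSeq sequence was at hand, so that the base composition upstream of genes that moved in opposite directions can be compared. Each run is the longest part of the 250 bases before the RefSeq start that lies in no annotated exon of any gene. It is given 5′ to 3′ on the strand of the gene, in GRCm38.p6, with CpG dinucleotides in capitals. The Kdm3a run (chr6:71632991-71633167, minus strand) has 177 bases and 14 CpG, and the Kdm5b run (chr1:134559928-134560170, plus strand) has 243 bases and 12 CpG. Each holds a single GC box, the letters GGGCGG on either strand.
Kdm3a: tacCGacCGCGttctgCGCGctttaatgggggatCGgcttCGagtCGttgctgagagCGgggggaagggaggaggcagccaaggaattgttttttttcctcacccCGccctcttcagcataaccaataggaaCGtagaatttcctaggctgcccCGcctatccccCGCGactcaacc
Kdm5b: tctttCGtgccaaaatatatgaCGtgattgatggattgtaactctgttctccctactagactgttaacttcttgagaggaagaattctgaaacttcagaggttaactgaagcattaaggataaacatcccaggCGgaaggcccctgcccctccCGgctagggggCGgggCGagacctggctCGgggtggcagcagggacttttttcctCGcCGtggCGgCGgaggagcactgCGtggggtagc

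The acetylation enzymes also went in opposite directions, both by less than 2-fold. Kat6b (chr14:21481434-21672478), the acetyltransferase MORF, had 2993, 2553 and 2238 normalized counts in control and 2076, 2049 and 1976 in Ehmt2GKO libraries. The control libraries were spread widely and the Ehmt2GKO libraries were nearly equal and lower, with a log2 fold change of -0.35 ± 0.112 (edgeR adjusted P = 0.00647). Hdac9 (chr12:34047580-34917095), a class IIa deacetylase that acts with transcription factors of the MEF2 family, had 384, 435 and 453 normalized counts in control and 622, 654 and 643 in Ehmt2GKO libraries. The Ehmt2GKO libraries were all higher, by at least 1.37 times between the nearest libraries, and the log2 fold change was 0.59 ± 0.126 (edgeR adjusted P = 0.000514). Of the 18 annotated deacetylases and sirtuins, Hdac9 was the single one listed.

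The bromodomain genes Brd2, Brd3 and Brd1 were each higher in Ehmt2GKO oocytes, and none of these was called. Brd2 and Brd3 encode BET proteins, which bind acetylated histones and recruit the transcription elongation machinery, and Brd1 encodes a scaffold of acetyltransferase complexes. Brd2 (chr17:34112023-34122634) had 639, 619 and 478 normalized counts in control and 863, 776 and 1186 in Ehmt2GKO libraries, a log2 fold change of 0.70 ± 0.158 (edgeR adjusted P = 0.000739). Brd3 (chr2:27445579-27507662) had 418, 416 and 364 in control and 538, 569 and 715 in Ehmt2GKO libraries, with a log2 fold change of 0.60 ± 0.141 (edgeR adjusted P = 0.000989). Brd1 (chr15:88687300-88734233) had 980, 942 and 866 in control and 1324, 1130 and 1506 in Ehmt2GKO libraries, with a log2 fold change of 0.51 ± 0.121 (edgeR adjusted P = 0.00111). In each of these genes Ehmt2GKO replicate 5 was the highest library, and the groups did not overlap, as for 98.3% of all genes tested. Without Ehmt2GKO replicate 5 the log2 fold changes were smaller and of the same sign, 0.51 for Brd2, 0.47 for Brd3 and 0.40 for Brd1. Brd2 shares its span with H2-DMa and CR974462.3 on the opposite strand.

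The PHD finger and ING group was the largest, with 7 of 25 annotated genes listed, of which 5 were higher and 2 lower. Phf5a (ENSMUSG00000061360, chr15:81865319-81871911, minus strand) was the single call. The symbol rule takes it in by name, but its product is a subunit of the splicing factor SF3b, which recognizes the intron branch point, and not a chromatin enzyme. It had 1906, 1544 and 1946 normalized counts in control and 1037, 804 and 672 in Ehmt2GKO libraries. All Ehmt2GKO libraries were low, replicate 5 most of all. The mean fell 2.15-fold, from 1799 ± 221 to 838 ± 185 (SD, n = 3 each), with a log2 fold change of -1.10 ± 0.144 (edgeR adjusted P = 6.74e-06), and without Ehmt2GKO replicate 5 the value of -0.96 was no longer past the threshold.

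Phf23 (chr11:69995777-70000009) had 182, 149 and 127 normalized counts in control and 297, 212 and 292 in Ehmt2GKO libraries, with a log2 fold change of 0.81 ± 0.193 (edgeR adjusted P = 0.00115). Phf11d (chr14:59347407-59365470) had 181, 133 and 173 in control and 258, 327 and 248 in Ehmt2GKO libraries, with a log2 fold change of 0.77 ± 0.182 (edgeR adjusted P = 0.00102). The groups were apart in both genes, and a different Ehmt2GKO library was highest in each, replicate 3 for Phf23 and replicate 4 for Phf11d. The remaining genes of the group were among the more abundant and differed by less. Ing1, a reader of trimethylated H3K4 in the Sin3 deacetylase complex, had means of 2320 ± 403 in control and 3407 ± 298 in Ehmt2GKO oocytes (log2 fold change 0.55). Ing3, a subunit of the NuA4 acetyltransferase complex, had means of 4404 ± 365 and 6466 ± 334 (0.55). Both ING genes thus differed by the same amount after rounding, a fold of 1.47. Phf13, a further reader of trimethylated H3K4, had means of 2515 ± 166 and 3645 ± 350 (0.54), and Phf14 had 2168 ± 180 and 1712 ± 115 (-0.34). Phf14 lies 312 bp from the listed gene Ndufa4, whose log2 fold change was -1.55.

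The chromodomain genes Cbx7 and Cbx1 differed in direction and in level. Cbx7 (ENSMUSG00000053411, chr15:79915807-79971119, minus strand), a Polycomb protein that binds trimethylated H3K27, was the least abundant of the 29 genes. It had 4, 7 and 0 reads in control libraries 1, 2 and 6 and 16, 16 and 29 reads in Ehmt2GKO libraries 3, 4 and 5. The highest control library lay well below the lowest Ehmt2GKO library, control replicate 6 had no read, and reads were few in all 6 libraries. The normalized means were 3.71 ± 3.53 and 20.3 ± 7.49 (SD, n = 3 each), a 5.47-fold difference, and the log2 fold change was 2.42 ± 0.631 (edgeR adjusted P = 0.00198). Leaving out each library in turn moved it between 1.83 and 3.25, and without Ehmt2GKO replicate 5 it was 2.08 with an edgeR adjusted P of 0.0149, so that the call was lost. Cbx7 overlaps Apobec3 on the opposite strand.

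Cbx1 (chr11:96789127-96808640) encodes HP1 beta, a reader of methylated H3K9 in heterochromatin. It had 1971, 1494 and 1882 normalized counts in control and 1137, 1098 and 1045 in Ehmt2GKO libraries. The Ehmt2GKO libraries were close together and all below the lowest control library, replicate 2. The means of 1782 ± 253 and 1093 ± 46.2 gave a log2 fold change of -0.70 ± 0.117 (edgeR adjusted P = 6.64e-05). The Cbx7 promoter run (GRCm38.p6 chr15:79932769-79932896, minus strand) has 128 bases, 6 CpG in capitals and 1 GC box. It precedes the RefSeq start, which lies 38473 bp inside the 5′ end of the deposited span, and is shown because this gene had the largest fold change of the 29.
Cbx7: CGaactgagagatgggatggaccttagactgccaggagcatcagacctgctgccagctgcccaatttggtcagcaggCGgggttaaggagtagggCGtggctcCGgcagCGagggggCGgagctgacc

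The 3 remodelers were all higher by less than 1.5-fold, and none was called. Chd7 (chr4:8690406-8867659), the CHD remodeler mutated in CHARGE syndrome, had 1590, 1691 and 1414 normalized counts in control and 2022, 1862 and 2447 in Ehmt2GKO libraries, with a log2 fold change of 0.43 ± 0.118 (edgeR adjusted P = 0.00267). Chd1, a remodeler that binds trimethylated H3K4 at active genes, had 2059, 1981 and 2018 in control and 2477, 2688 and 2544 in Ehmt2GKO libraries, with a log2 fold change of 0.35 ± 0.0963 (edgeR adjusted P = 0.00291). Smarca5 (chr8:80698507-80739497), the ATPase of the ISWI remodelers, had 3079, 3405 and 3382 in control and 4142, 4298 and 3894 in Ehmt2GKO libraries, with a log2 fold change of 0.32 ± 0.0980 (edgeR adjusted P = 0.00505). Replicates of Chd1 and Smarca5 lay close together, and the groups stood apart in spite of the small folds. The deposited span of Chd1, chr17:15704967-17394898, reaches over 23 other genes, one of them the listed gene Rgmb (log2 fold change 0.70), whereas the GENCODE vM21 span ends at 15772610 and holds no other gene. Smarca5 has 4 copies at 95% identity or more (Gm13034, Gm13135, Gm13140 and Smarca5-ps), so that its reads may be split among them. Its nearest listed neighbour, Gab1, 24941 bp away, had 24, 14 and 29 reads in control and 488, 491 and 533 in Ehmt2GKO libraries. The study's text describes Gab1 as decreased, and the direction given here rests on the labels.

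**Figure D2:**
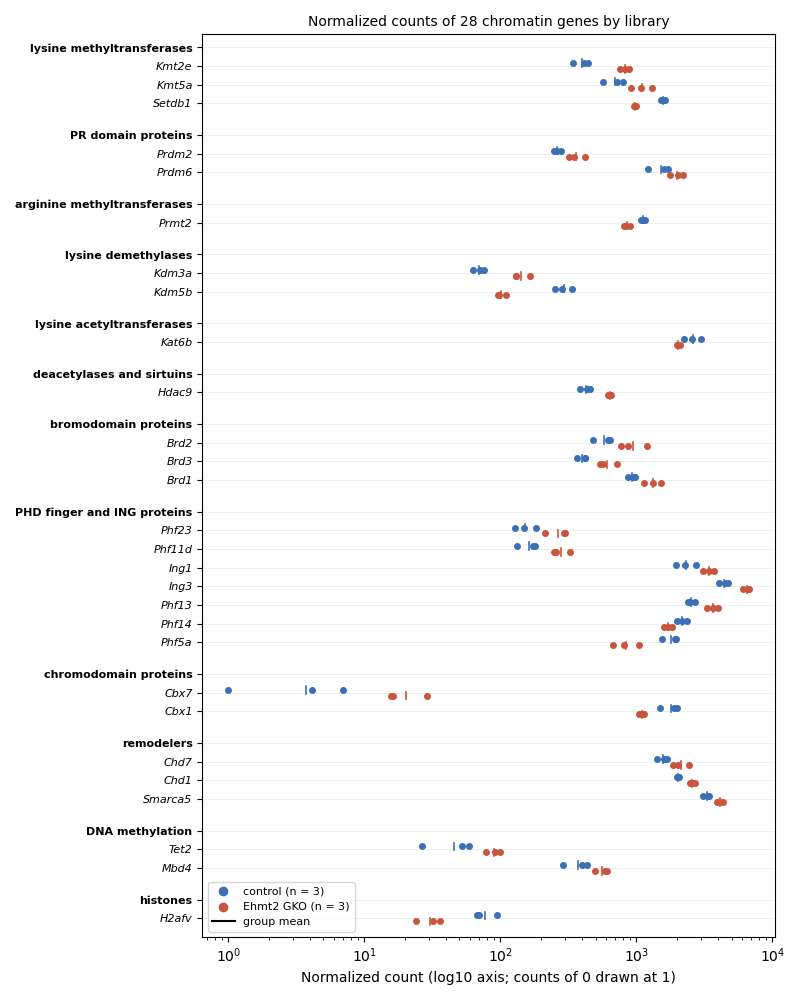
Normalized counts of 28 of the genes in each library, on a log10 axis, ordered by role, with control libraries in blue, Ehmt2GKO libraries in red and a short bar at each group mean (n = 3 each). A library with 0 reads is drawn at 1. The red and blue points do not overlap in any row, as for 98.3% of all genes tested. The gap between them is wide for Kdm5b, Cbx7 and H2afv and narrow for Prdm6.

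Of the DNA methylation genes, Tet2 and Mbd4 were listed, of 16 annotated, and both were higher. Tet2 (chr3:133463679-133545139), a dioxygenase that oxidizes 5-methylcytosine, had 58.6, 52.1 and 26.4 normalized counts in control and 91.5, 78.7 and 98.7 in Ehmt2GKO libraries. Control replicate 6 was the lowest, well below the other controls, and the groups did not overlap. The means were 45.7 ± 17.0 and 89.7 ± 10.2 (SD, n = 3 each), and the log2 fold change of 0.97 ± 0.299 (edgeR adjusted P = 0.00535) lay just short of the threshold. It was past it with RLE factors in edgeR (1.07) and in DESeq2 (1.07), not past it with library sums alone (0.96), and past it, among the fits that left out a library, without control replicate 1 (1.18), without control replicate 2 (1.07) and without Ehmt2GKO replicate 4 (1.05). Without control replicate 6 the log2 fold change was 0.69. Mbd4 (chr6:115840697-115853371), a glycosylase that removes thymine mispaired with guanine, had 290, 396 and 430 normalized counts in control and 605, 584 and 496 in Ehmt2GKO libraries. Control replicate 1 was the lowest library, and the log2 fold change was 0.59 ± 0.155 (edgeR adjusted P = 0.00204).

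Of 101 annotated genes with histone prefixes, H2afv alone was listed. H2afv (ENSMUSG00000041126, chr11:6427229-6444443, minus strand) encodes an H2A.Z histone variant, which takes the place of H2A near promoters and, unlike most core histones, is made from a polyadenylated mRNA. It had 66.8, 69.2 and 94.97 normalized counts in control libraries 1, 2 and 6 and 32.1, 35.8 and 23.9 in Ehmt2GKO libraries 3, 4 and 5. Control replicate 6 was the highest and Ehmt2GKO replicate 5 the lowest library, and the lowest control was 1.87 times the highest Ehmt2GKO library. The mean fell 2.51-fold, from 77.0 ± 15.6 to 30.6 ± 6.06, with a log2 fold change of -1.33 ± 0.301 (edgeR adjusted P = 0.000784), and it was called without any one of the 6 libraries (-1.46 to -1.16) but not when the fold was tested against 2 (edgeR adjusted P = 0.200). Its nearest listed neighbour, Ppia, 7412 bp away, was at 1110 ± 57.4 in control and 452 ± 121 in Ehmt2GKO (log2 fold change -1.30). Most core histone mRNAs lack a poly(A) tail. The promoter run of H2afv (GRCm38.p6 chr11:6444444-6444693, minus strand, listed in RefSeq as H2az2) has 250 bases, 19 CpG in capitals, 1 GC box and 4 CCAAT boxes on either strand, and is shown as the promoter of the single listed histone gene.
H2afv: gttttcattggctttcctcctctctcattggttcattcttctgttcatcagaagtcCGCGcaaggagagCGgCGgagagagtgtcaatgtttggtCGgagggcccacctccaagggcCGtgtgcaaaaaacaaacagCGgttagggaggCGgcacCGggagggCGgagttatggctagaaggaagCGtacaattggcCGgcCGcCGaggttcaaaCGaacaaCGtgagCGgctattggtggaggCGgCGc

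**Figure D3:**
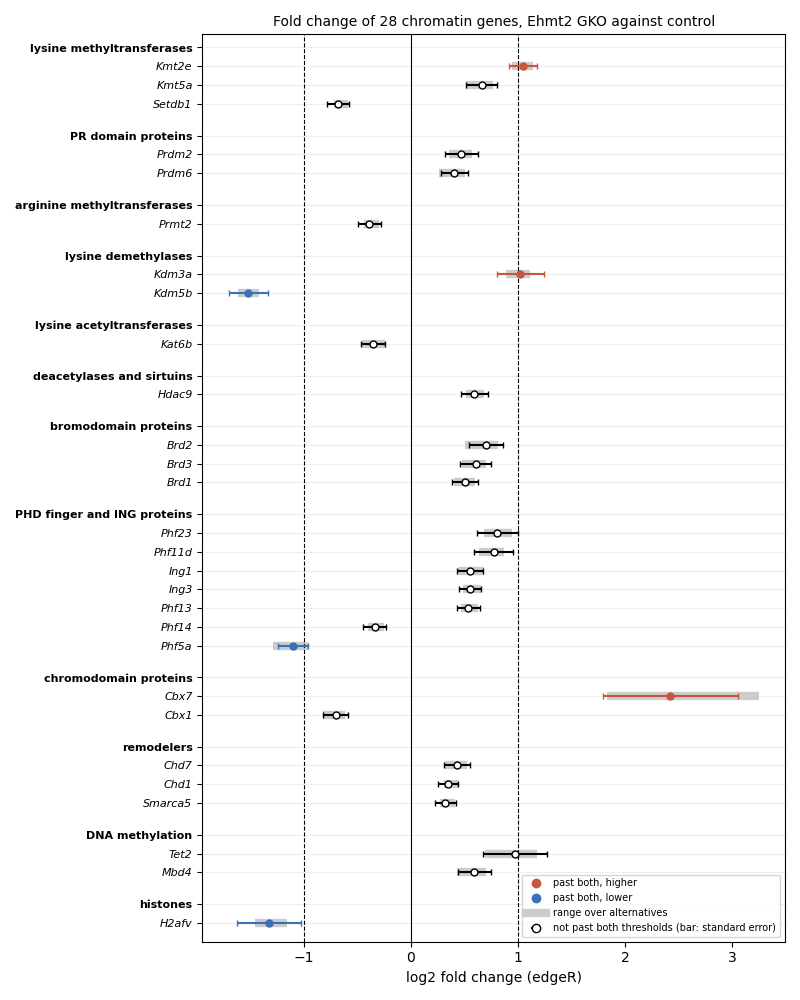
Log2 fold change of 28 of the genes with its standard error from edgeR, ordered by role, with genes past both thresholds filled (red higher, blue lower) and a grey band for the range over the alternative fits. Dashed lines mark -1 and 1, and the bands of Kmt2e, Kdm3a, Phf5a and Tet2 cross a dashed line, whereas those of Kdm5b and H2afv do not.

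Levels per kilobase of exon used the union of exons over all annotated transcripts, and ranks may change with another length. The most abundant of the 29 in control was Ing3, at 918 normalized counts per kilobase, followed by Phf5a at 830.5 and Phf13 at 785. In Ehmt2GKO oocytes Ing3 was again the highest, at 1348, followed by Phf13 at 1137, and Phf5a came down from rank 2 to rank 6 at 387. At the other end stood Cbx7, at 0.572 per kilobase in control and 3.13 in Ehmt2GKO, and Tet2, at 2.71 and 5.31. The demethylases were the next lowest and changed places, with Kdm3a going from 8.49 to 17.3 and Kdm5b from 17.6 to 6.12 normalized counts per kilobase. In Ehmt2GKO oocytes the lowest levels, at ranks 25 to 29, were those of H2afv, Kdm3a, Kdm5b, Tet2 and Cbx7 in this order, and the other called genes, Phf5a and Kmt2e, ranked 6 and 21.

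Libraries differed within groups. Ehmt2GKO replicate 5 was the highest library in 12 of the 21 higher genes and the lowest in 6 of the 8 lower genes, whereas over all genes tested it was the highest in 51.0% of the higher and the lowest in 45.2% of the lower genes. Control replicate 6 was the lowest library in 12 of the 21 higher genes, and the lowest control library in 31.4% of the higher genes over all genes tested. Without Ehmt2GKO replicate 5, 3 genes were called in place of 6, H2afv, Kdm3a and Kdm5b, against 31.2% of all genes tested.

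**Figure D4:**
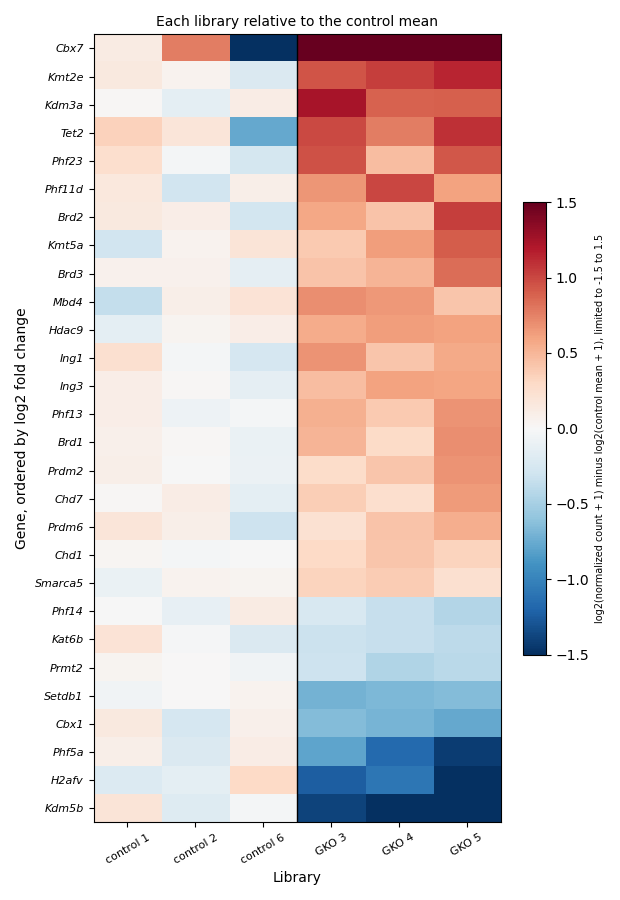
Heat map of 28 of the genes (rows, ordered by log2 fold change) in the 6 libraries (columns), coloured by log2 of the normalized count plus 1 minus that of the control mean, limited to -1.5 and 1.5. The Ehmt2GKO columns are red for the upper 20 genes and blue for the lower 8, and Ehmt2GKO replicate 5 holds the deepest colour in many rows, whereas control replicate 6 is blue for Cbx7 and Tet2.

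RefSeq promoters of 300 bases, from 250 before to 50 after the start (GRCm38.p6), were at hand for 22 of the 29 genes. The median number of CpG was 24.5, compared with 19 in the 1791 promoters of listed protein-coding genes and 7 in all 32851 promoters. The median GC content was 61.3%, 59.3% and 52.7% in the same order, and the median ratio of observed to expected CpG was 0.907, 0.728 and 0.384. The range within the group was wide, from Hdac9 with 0 CpG and Phf11d with 3 to Tet2 with 57. The GC box GGGCGG was found on either strand in 19 of the 22 (86.4%), in 59.1% of listed protein-coding and in 35.7% of all promoters, and Kat6b held 8 of them. As for Cbx7, the RefSeq start lies far inside the 5′ end of the deposited span for Kat6b (18336 bp) and Brd3 (32264 bp), so these windows are not the start of the deposited gene. The promoters without a GC box were those of Brd2, Hdac9 and Phf11d.

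Other motifs were sought on both strands in the same windows, and no motif contains another. CCAAT was present in 45.5% of the 22 promoters, 41.4% of those of listed genes and 37.4% of all, with 4 matches in Kmt5a as in H2afv. TATAAA was present in 9.09%, 9.60% and 13.6% in the same order, in Hdac9 and Prmt2 among the 22. The E-box CACGTG (0%, 10.6% and 7.15%) and the ETS motif CCGGAAGT (0%, 7.20% and 3.89%) were found in none of the 22. The CRE TGACGTCA was found in Ing3 alone (4.55%, 3.13% and 1.79%). These are letter matches in the sequence, and binding or methylation of these promoters was not analysed here.

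Chromatin genes outside the symbol rule were counted from 6 lists of complex partners and cofactors, 152 genes in all. Of these, 19 were listed, 14 of them higher (73.7%, beside 49.4% of all genes tested) and 5 lower, with a median log2 fold change of 0.48. The median of all genes tested was -0.32 in the main fit and 0.31 with no low-count filter. Of the 19, 2 were called (10.5%, beside 35.7% of all genes tested). The acetylation cofactors had 5 of 23 genes listed, all higher and none called, with Sap30, a subunit of the Sin3 deacetylase complex, at 0.89. Among 29 Polycomb genes, 3 were higher and 2 lower, and Sfmbt2 was called higher, with 1, 3 and 0 reads in control libraries and 49, 42 and 51 in Ehmt2GKO libraries. The study's text describes Sfmbt2 as decreased, and the direction given here rests on the labels. Of 39 partners of SWI/SNF, ISWI and INO80 remodelers, 3 were higher and 2 lower, and Mta1, a subunit of the NuRD complex, fell from 82.5 ± 8.20 to 41.0 ± 6.27 normalized counts (log2 fold change -1.01, edgeR adjusted P = 0.00234). The 18 genes of H3K9 methylation and heterochromatin had 1 listed, Mphosph8 of the HUSH complex (0.49), and the 26 of other lysine methylation had Dot1l, the H3K79 methyltransferase (0.56). Of 17 histone chaperones, Daxx, which deposits H3.3, was at 0.68 and Hjurp, which deposits the centromeric histone CENP-A, at -0.79, neither called.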

How the data were processed

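RNA sequencing counts of 3 control and 3 Ehmt2GKO libraries of MII oocytes were analysed; the RRBS samples were not used here. The authors deposited whole-number read counts per gene without normalization, and beside them the results of their own comparison (a fold change, also as log2, and P values), of which the adjusted P was used only to establish that every listed gene has an adjusted P below 0.05. Per the labels, the submitters' processing notes name HISAT2, DESeq2 and GRCm38; the counting program, its strand setting and the annotation are not given in the sources used here. All tests therefore ran on genes already selected on the same 6 libraries, which weakens the assumption of TMM that most genes do not change.

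Counts were fitted in R 4.3.3 with edgeR 4.0.16 (filterByExpr with a minimum count of 10, TMM, quasi-likelihood F-test, Benjamini-Hochberg adjustment over 2516 genes). Reads per library over the listed genes were 4060653 to 4258350; library pairs within a group differed by more than sampling noise (chi-square per gene 10.9 to 24.3). Standard errors are the log2 fold change divided by the root of F. Exact permutation tests were 2-sided. DESeq2 1.42.0, other size factors and filters, a test of the fold against 2 and leaving out each library were the alternatives. Overlaps and exon lengths came from GENCODE vM21, copies from blastn 2.17.0 (95% identity over 50% of a transcript), and promoters from RefSeq tables of GRCm38.p6. Promoters were matched by Ensembl identifier, or else by symbol or synonym. Where a gene had several, that nearest the deposited 5′ end was taken. Of the 2615 identifiers, 2613 were found in vM21.

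The genes, lists and tests were chosen with earlier results of these data known. The genes that fit the symbol rule are named, except for a further item that is counted but not reported here, with every library's value for those called and for the 3 largest changes in each role group; of other chromatin genes, those called are named, and Sap30, Mphosph8, Dot1l, Daxx, Hjurp the oocyte and follicle cell markers and the neighbouring genes were named after their values were seen. Dnmt3aos fits the prefixes but is an antisense RNA and was left out of the 29.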

Additional observations from a re-analysis of the deposited data

How the results depend on the processing

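Over 12 alternatives, 347 values of the 29 genes were compared with the main fit. Of these, 329 kept direction and side of the thresholds, 12 lost the call, 6 gained it and 0 turned. The test of the fold against 2 left the log2 fold changes as they were, so these could not turn. As the genes were selected on the same libraries, the kept directions are no independent support. When the fold was tested against 2, 0 of the 29 genes were called (0 higher and 0 lower) by edgeR's glmTreat, with 3 at an unadjusted P below 0.05, as this test asks for a fold clearly above the threshold. The nearest was Kdm5b, with an adjusted P of 0.0105, and 10.3% of all genes tested were called. Leaving out each library gave 3 to 7 calls (10.3% to 24.1%), 1 to 4 of them higher and 2 to 3 lower. Of all genes tested, 31.2% to 36.0% were called in these fits. The low values came without Ehmt2GKO replicate 5 (3 calls, 1 higher and 2 lower). RLE factors and DESeq2 each gave 7 calls (24.1%), Tet2 being added, against 35.0% and 34.4% of all genes tested. Both shifted the log2 fold changes of all genes by a median of 0.094. The median log2 fold change of all genes tested changed sign in other alternatives. From -0.32 in the main fit it went to 0.31 with no filter. Without control replicate 1, 2 or 6 it was 0.26, 0.27 or 0.24. The share of calls that were higher over all genes was 52.5% with TMM, 59.4% with RLE factors and 60.4% in DESeq2. Prmt2, Kat6b and Phf14, all lower, then had an adjusted P above 0.01. It was 0.0163, 0.0378 and 0.0364 in edgeR with RLE factors, and 0.0132, 0.0362 and 0.0346 in DESeq2. With at least 10 counts in every library, Cbx7 had no value and Tet2 (1.02) was called. In every other alternative 21 genes were higher, and in that one 20 were. No paired analysis was possible because the control and Ehmt2GKO libraries share no replicate number. With 3 libraries a group, counting error limits Cbx7 most, and total depth is not known.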

Other observations

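Dnmt3aos, an antisense RNA at the Dnmt3a locus that the biotype keeps out of the chromatin genes, had 45.2, 50.1 and 71.5 normalized counts in control libraries 1, 2 and 6 and 109, 130 and 108 in Ehmt2GKO libraries 3, 4 and 5. The groups did not overlap, as for 98.3% of all genes tested, and the log2 fold change was 1.05 ± 0.254 (edgeR adjusted P = 0.00123). Its partner Dnmt3a was not analysed here, and the strand of the reads is not known, so that reads of the pair cannot be told apart.

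Of the 29 genes, 12 had a listed gene within 100 kb. The log2 fold change of the nearest had the same sign in 8 and the other sign in 4. The share of equal signs over all listed genes was not computed, so 8 of 12 has no background to be read against. For Chd1 the neighbour was Rgmb, which lies inside its long deposited span. Tob2, 6993 bp from Phf5a, was at 730 ± 45.8 in control and 1235 ± 239 in Ehmt2GKO (log2 fold change 0.76). Chmp3, 6363 bp from Kdm3a, was at 2113 ± 64.2 and 1527 ± 26.4 (-0.47). Klhl12, 69153 bp from Kdm5b, was at 220.4 ± 31.2 and 323 ± 28.4 (0.55). Rpl32, 31950 bp from Mbd4, had a log2 fold change of -0.91. These 4 are the ones of the other sign, named after the values were seen.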
